A study of Bos taurus with 27 samples.

Results

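The genes described here are 40 genes that cycling cells switch on, such as the dividing cells at the base of the colonic crypts. They were given as a list of symbols, and each was looked up by its symbol in the gene lists published with the study, which pair symbols with the Ensembl identifiers of the count table. A single identifier was found for 19 of the 40 genes, and all 19 passed the filter on low counts among 13943 of the 24616 genes of the table. The 19 were the replication genes MCM5, MCM6, MCM7, PCNA, RRM1 and DNMT1 and the mitosis genes CCNB2, PLK1, AURKA, BIRC5, CENPF, KIF11, NUSAP1, ECT2, PRC1, TOP2A, SMC2, SMC4 and NCAPG. The other 21, MKI67, CDK1, MCM2, CCNA2 and BUB1 among them, had no single identifier in those lists and were not analysed here.

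A cell that divides first licenses its replication origins by loading the MCM helicase, then copies its DNA and the methylation marks on it, and finally condenses the chromosomes and separates them on a spindle. The transcripts of the replication genes are made mainly around the start of DNA synthesis and those of the mitosis genes later, before division. In the colon, division is largely restricted to the lower part of the crypts, which renew the epithelium throughout life.

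RNA-seq was done on colon segments of 27 male newborn Holstein calves killed at 51 h of age. TRT0, TRT6 and TRT12 calves, 9 of each, received their first colostrum meal 0, 6 and 12 h after birth, and all of them received milk replacer after it. Because age at sampling was fixed, the time since the first meal and the number of milk meals differed between treatments as well, and these cannot be told apart. The dams were heifers or cows, and since the public sample labels do not say which, calves were not compared by dam parity. The comparisons addressed whether the transcriptome of the colon differed with a delayed first meal.

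Library totals ran from 1163791 to 4202593 assigned reads with a median of 2215402. At that depth AURKA was measured by 9 to 54 reads per calf, BIRC5 by 24 to 75 and CENPF by 185 to 728. The run names in the labels fall into 3 sets of 11, 11 and 5 calves, called lanes 1 to 3 here. Lanes 1 and 2 share a run number and lane 3 has another, so that lane and run cannot be told apart for its calves. The treatments were spread unevenly over them. Lane 1 held 2 TRT0, 5 TRT6 and 4 TRT12 calves, lane 2 held 5, 3 and 3, and lane 3 held 2, 1 and 2. Levels below are TMM CPM, the reads of a gene relative to the library total after scaling by the trimmed mean of M-values. They depend on transcript length, so that the levels of different genes were not ranked against each other. The segments were frozen whole, and the smooth muscle markers DES, MYH11 and ACTA2, the stromal markers COL1A1 and DCN and the epithelial markers EPCAM and VIL1 were counted in every calf.

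The widest difference between treatments was that between TRT12 and TRT0. Of the 19 genes, 17 had a log2 fold change above 0, against 49.3% of all genes tested, and the median was 0.18 against -0.004 for all genes. A fold of 1.2 or more was reached by 6 of them, against 10.5% of all genes in that direction, and none was lower by that fold, as 12.7% of all genes were. None passed the threshold of an adjusted p of 0.10 and a fold of 1.2 in the edgeR quasi-likelihood test with Benjamini-Hochberg adjustment, as 0% of all genes did. At an unadjusted p under 0.05 there were 8 of the 19, beside 9.37% of all genes. All 8 had the higher value in TRT12, as 5.19% of all genes did at that p. In every one of the 19 the values of TRT12 and TRT0 overlapped, but overlap was not counted over all genes. Of the 8, 7 are among the 10 genes that appear in the list of the study's Red co-expression module, which was built on these same calves. The median log2 fold change was 0.30 over these 10 genes and 0.11 over the other 9, of which 1 was at an unadjusted p under 0.05. The 19 genes were chosen with earlier results of these data known. They also vary together across calves (mean Pearson r = 0.334 over 171 pairs). The counts above are therefore not counts of independent genes.

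Among the replication genes, all 6 had a log2 fold change above 0 in TRT12 vs. TRT0, beside 49.3% of all genes. These 6 values ran from 0.17 to 0.51. MCM5, a subunit of the replicative helicase, had a lowest, median and highest TMM CPM of 20, 31.5 and 38.4 in TRT0, 26.2, 34.2 and 63.3 in TRT6 and 23.8, 37.1 and 69.5 in TRT12. Of the TRT12 calves, 4 of 9 were above the highest TRT0 calf, while the lowest TRT12 calf was below the TRT0 median. The log2 fold change of TRT12 vs. TRT0 was 0.51 ± 0.19 (SE) with an adjusted p of 0.434 in edgeR.

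MCM6, another subunit of that helicase, ran from 45.2 over a median of 53.8 to 75.9 TMM CPM in TRT0 and from 58.5 over 68.7 to 89.7 in TRT12. Every TRT12 calf was above the TRT0 median and 6 of the 9 TRT0 calves were below the lowest TRT12 calf. Its log2 fold change was 0.28 ± 0.12 (edgeR, adjusted p = 0.492). MCM7, a further subunit, averaged 71.8 ± 8.99, 81.5 ± 10.2 and 81.1 ± 13.8 TMM CPM in the 3 treatments in order of feeding time (SD, n = 9 each), so that the TRT6 and TRT12 means were nearly equal.

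PCNA, the sliding clamp that holds DNA polymerase on its template, averaged 49.4 ± 9.10, 51.4 ± 16.2 and 59.4 ± 10.9 TMM CPM in the same order (SD, n = 9 each). The 4 lowest TRT0 calves were below every TRT12 calf, and the log2 fold change was 0.25 ± 0.14 (edgeR, adjusted p = 0.607). RRM1, the large subunit of the ribonucleotide reductase that supplies deoxynucleotides, had medians of 59.1, 66.4 and 69.6 TMM CPM in TRT0, TRT6 and TRT12, within overall ranges of 46.2 to 76.5, 50.2 to 81.7 and 50.5 to 88.3. DNMT1, which copies DNA methylation onto the new strand, was the least spread of the 6, with medians of 82.4, 91.9 and 92.4. For RRM1 and DNMT1 the log2 fold changes of TRT12 vs. TRT0 were 0.23 ± 0.11 and 0.18 ± 0.09, at adjusted p of 0.52 and 0.531 in edgeR. Without TRT12 replicate 1 that of DNMT1 was 0.11.

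The mitosis genes were less uniform. Of the 13, 11 had a log2 fold change above 0 in TRT12 vs. TRT0, beside 49.3% of all genes. The 13 values ran from -0.07 to 0.51. At an unadjusted p under 0.05 were 4 of the 13, beside 9.37% of all genes. BIRC5, the survivin subunit of the chromosomal passenger complex, had the lowest p of all 19 genes. Its lowest, median and highest values were 13, 17.1 and 21 TMM CPM in TRT0, 15.2, 19.2 and 36.7 in TRT6 and 16.3, 23.6 and 37.2 in TRT12. In 7 of 9 TRT12 calves it was above the highest TRT0 calf, and the log2 fold change was 0.51 ± 0.17 (edgeR, adjusted p = 0.421).

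AURKA, a kinase of the spindle poles, had medians of 11.9, 12.5 and 15 TMM CPM in the 3 treatments, and 6 of 9 TRT12 calves were above the highest TRT0 calf at 14.6. KIF11, the motor that pushes the spindle poles apart, had medians of 42.6, 47.8 and 49.4, and its highest calf reached 81.2 in TRT12. SMC2, a core subunit of the condensin that compacts chromosomes, had medians of 50.9, 58.9 and 74.2. The log2 fold changes of AURKA, KIF11 and SMC2 in TRT12 vs. TRT0 were 0.34 ± 0.15, 0.32 ± 0.13 and 0.33 ± 0.16, with adjusted p of 0.49, 0.461 and 0.513 in edgeR.

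The partners of SMC2 in condensin stood closer to 0, with log2 fold changes of 0.12 ± 0.12 for SMC4 and 0.15 ± 0.13 for NCAPG. TOP2A, the topoisomerase that untangles sister chromosomes, averaged 157 ± 19.6, 164 ± 24.6 and 178 ± 29.7 TMM CPM in TRT0, TRT6 and TRT12 (SD, n = 9 each), and 5 of 9 TRT12 calves were above the highest TRT0 calf. ECT2, which starts the contraction of the dividing cell, CCNB2, a B-type cyclin, and NUSAP1, which bundles spindle microtubules, had log2 fold changes of 0.11 ± 0.16, 0.07 ± 0.15 and 0.08 ± 0.17. These errors were larger than the differences.

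For the remaining 3 genes the groups were close to level. CENPF, a kinetochore protein, averaged 159 ± 20.1, 158 ± 18.1 and 160 ± 24 TMM CPM in TRT0, TRT6 and TRT12 (SD, n = 9 each). PRC1, which crosslinks the microtubules of the spindle midzone, averaged 36.8 ± 4.48, 36.0 ± 2.99 and 35.3 ± 5.59. PLK1, the kinase that drives entry into and exit from mitosis, averaged 74.5 ± 10.9, 80.5 ± 8.76 and 73.1 ± 9.70, and its log2 fold change of -0.02 ± 0.10 and that of PRC1 of -0.07 ± 0.10 were the 2 below 0.

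**Figure D1:**
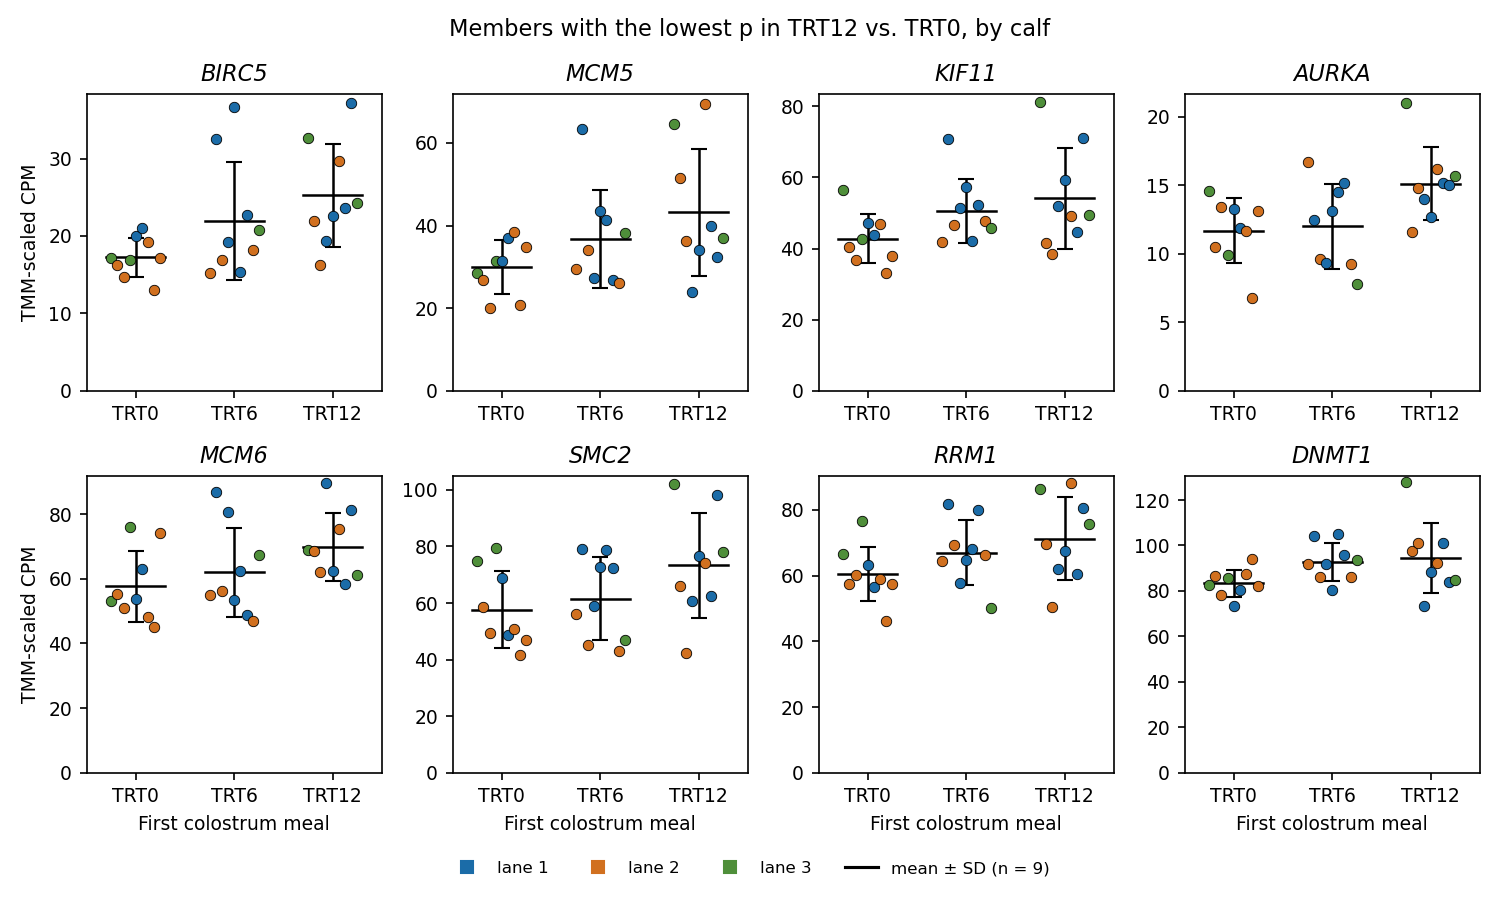
TMM CPM of the 8 genes with an unadjusted p under 0.05 in TRT12 vs. TRT0, by treatment, with 1 point for each calf coloured by sequencing lane, and bars giving the mean and SD of 9 calves. In all 8 panels the treatments overlap, and the TRT12 mean is the highest of the 3, for instance 25.3 for BIRC5 against 17.2 in TRT0.

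The plot of the 8 genes by calf shows how far single animals contributed. The highest TRT12 value of KIF11, AURKA, SMC2 and DNMT1 came from the same calf, TRT12 replicate 1, which had 1314579 assigned reads and was sequenced in lane 3. Without it, 3 of the 19 genes were at an unadjusted p under 0.05 in place of 8, beside 9.19% of all genes. Without TRT0 replicate 3, TRT0 replicate 8, TRT12 replicate 6 or TRT12 replicate 8 there were 4. The shares of all genes in those runs were 7.70%, 7.90%, 6.89% and 7.42%. Without TRT0 replicate 2, 6, 7 or 9 there were 5, beside 8.12%, 9.67%, 8.64% and 10.5% of all genes. With the sequencing lane as a covariate there were 5, beside 9.91% of all genes. Dam parity was another covariate of the fit, and without it there were 8, beside 9.62% of all genes.

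Calves first fed at 6 h lay between the others for most of these genes. In TRT6 vs. TRT0, 16 of 19 log2 fold changes were above 0, against 51.7% of all genes, with a median of 0.09 and a highest value of 0.31 ± 0.18 for BIRC5. In TRT12 vs. TRT6, 15 of 19 were above 0, against 49.5% of all genes, again with a median of 0.09. None of the 19 was called in either comparison by edgeR, where 0% of all genes were, and none was at an unadjusted p under 0.05, beside 3.13% and 3.14% of all genes. DESeq2, run as a second tool, likewise called none of the 19 in these comparisons. In TRT12 vs. TRT0 its independent filtering left 17 of the 19 genes without an adjusted p, so that they could not be called. Without that filtering it called none of the 19 there, the lowest DESeq2 adjusted p being 0.347, and 0 genes of the whole table.

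By unadjusted p, the foremost genes in TRT6 vs. TRT0 were MCM7 (0.18 ± 0.10), BIRC5, DNMT1 (0.15 ± 0.09) and KIF11 (0.23 ± 0.13), followed by MCM5 (0.28 ± 0.19), all at an adjusted p of 1 in edgeR. In TRT12 vs. TRT6 it was AURKA, at 0.31 ± 0.15 (edgeR, adjusted p = 1), ahead of SMC2 at 0.24 ± 0.16, PCNA at 0.21 ± 0.15 and MCM6 at 0.18 ± 0.12. PLK1 had a log2 fold change of -0.13 ± 0.10 between these treatments (edgeR, adjusted p = 1). The 3 comparisons share their calves in pairs and are given side by side for that reason. The median of TRT6 vs. TRT0 was 0.03 without TRT6 replicate 2 and 0.04 without TRT0 replicate 8. That of TRT12 vs. TRT6 was 0.04 without TRT12 replicate 1 and 0.05 without TRT12 replicate 8, and 0.15 without TRT6 replicate 2 or TRT12 replicate 3. Of the genes named, MCM5 was at 0.15 in TRT6 vs. TRT0 without TRT6 replicate 2, BIRC5 at 0.18 without TRT6 replicate 5, and PCNA at 0.32 in TRT12 vs. TRT6 without TRT6 replicate 2.

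**Figure D2:**
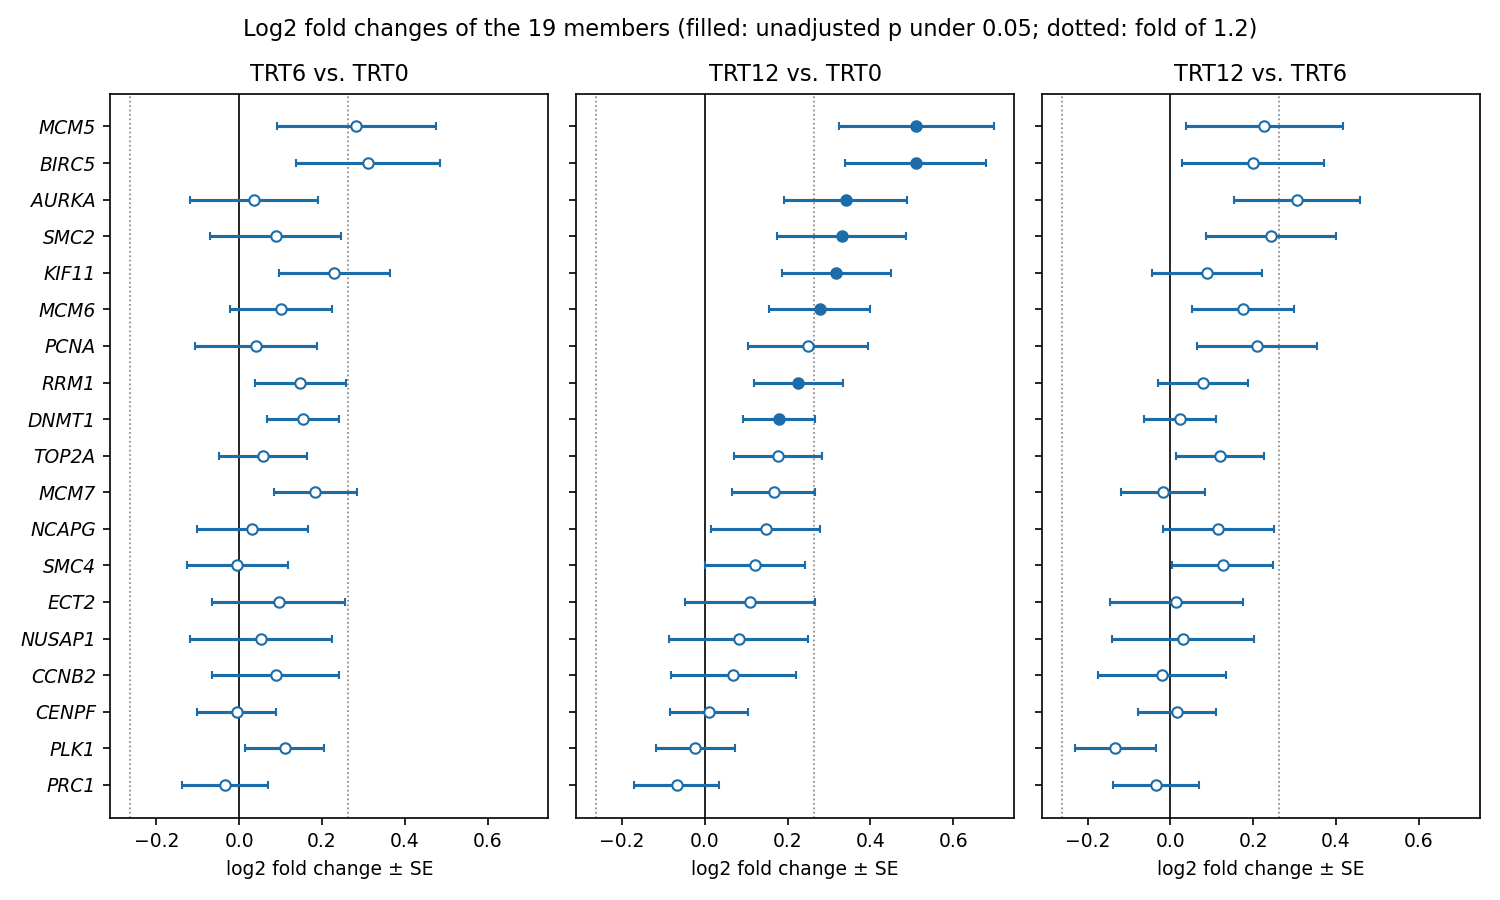
Log2 fold changes with their standard errors for the 19 genes, ordered by TRT12 vs. TRT0, in the 3 comparisons between treatments. Filled points mark an unadjusted p under 0.05 and dotted lines a fold of 1.2. The 8 filled points are all in TRT12 vs. TRT0, beside 9.37% of all genes at that p. There 17 of 19 values lie right of 0, beside 49.3% of all genes, from -0.07 for PRC1 to 0.51 for MCM5.

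To describe each calf by 1 value, a score was taken as the mean of log2(TMM CPM + 1) over the 19 genes. For TRT0, TRT6 and TRT12 it averaged 5.50 ± 0.14, 5.60 ± 0.17 and 5.69 ± 0.18 (SD, n = 9 each). The TRT12 mean was 0.20 above that of TRT0, against an SD within treatments of 0.17, and 5 of 9 TRT12 calves were above the highest TRT0 calf. The lowest TRT12 calf, replicate 3 at 5.34, was nevertheless below 8 of the 9 TRT0 calves. Because the genes had been chosen with results known, no test was made on the score.

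The sequencing lanes differed in the score by as much as the treatments. The mean was 5.67 ± 0.14 in lane 1 (SD, n = 11), 5.47 ± 0.15 in lane 2 (n = 11) and 5.71 ± 0.17 in lane 3 (n = 5). Within lanes, the TRT12 mean was above the TRT0 mean by 0.15 in lane 1 (4 and 2 calves), by 0.16 in lane 2 (3 and 5) and by 0.20 in lane 3 (2 and 2). The TRT6 mean was above the TRT0 mean by 0.13 and 0.06 in lanes 1 and 2, while the single TRT6 calf of lane 3 was 0.13 below the TRT0 mean of that lane.

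**Figure D3:**
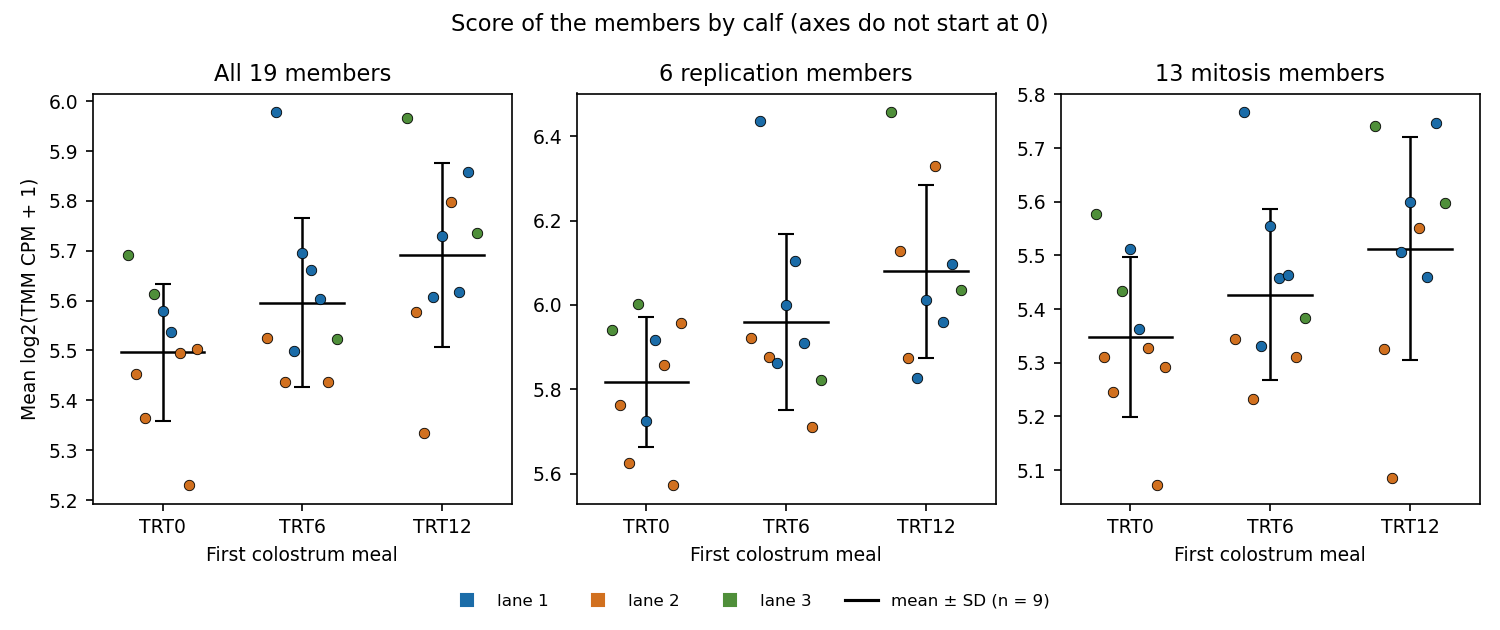
Score of each calf, as the mean of log2(TMM CPM + 1) over all 19 genes, over the 6 replication genes and over the 13 mitosis genes, by treatment, with lane as colour and the mean and SD of 9 calves as bars. The means of all 19 genes were 5.50, 5.60 and 5.69, and the points of lane 2 lie mostly in the lower part of each group, most clearly for the mitosis genes.

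The spread within TRT6 and TRT12 came largely from TRT6 replicate 2 at 5.98 and TRT12 replicates 1 and 3 at 5.97 and 5.34. The score had r = -0.35 with the log2 total over 27 calves, with the higher scores at the lower totals. Within treatments r was -0.732 in TRT12, -0.338 in TRT6 and 0.556 in TRT0 (9 calves each). With the log2 TMM factor, by which the levels are scaled, the score had r = -0.423 over 27 calves. Within treatments that r was -0.366 in TRT12, -0.318 in TRT6 and -0.695 in TRT0. The part of depth or of the scaling in the result was not tested.

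The replication and mitosis genes were also scored apart. The replication score averaged 5.82 ± 0.15, 5.96 ± 0.21 and 6.08 ± 0.21 in TRT0, TRT6 and TRT12, and the mitosis score 5.35 ± 0.15, 5.43 ± 0.16 and 5.51 ± 0.21 (SD, n = 9 each). TRT12 was above TRT0 by 0.26 in the first and by 0.17 in the second, against SDs within treatments of 0.19 and 0.17. Within a calf, the mitosis score minus the replication score averaged -0.47 ± 0.14, -0.53 ± 0.10 and -0.57 ± 0.20 for the 3 treatments, which overlapped. Lane 2 stood further below the others in the mitosis score (5.28 ± 0.13, against 5.52 ± 0.14 and 5.55 ± 0.14) than in the replication score (5.87 ± 0.22, against 5.99 ± 0.19 and 6.05 ± 0.24).

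**Figure D4:**
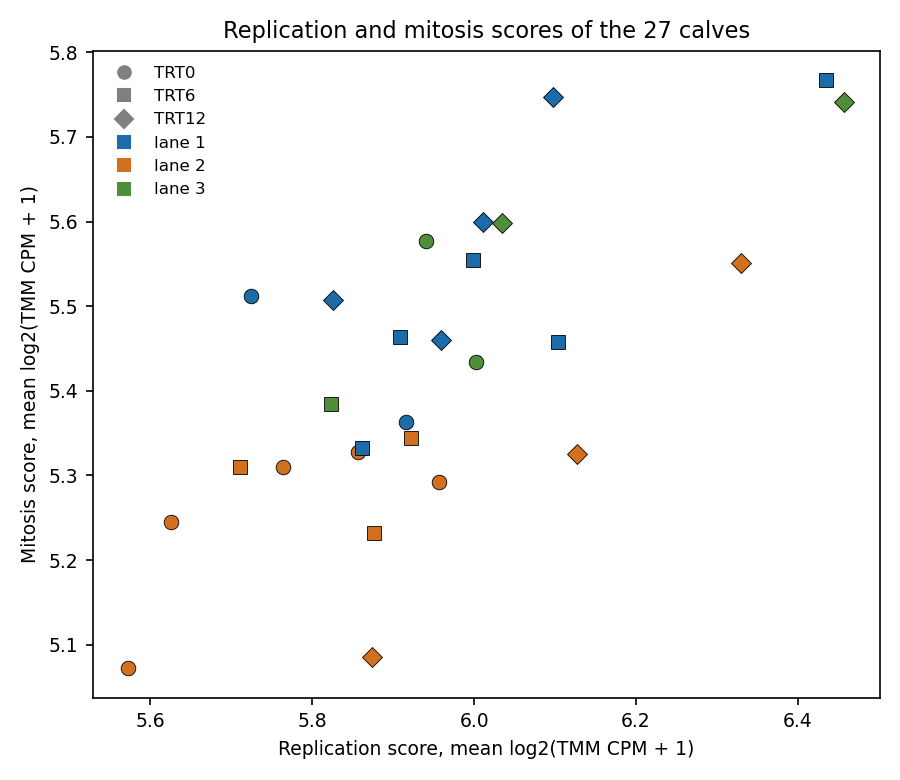
Mitosis score against replication score of the 27 calves, both as mean log2(TMM CPM + 1), with treatment as shape and lane as colour. TRT6 replicate 2 (6.44 and 5.77) and TRT12 replicate 1 (6.46 and 5.74) lie at the upper right, and lane 2 calves lie low on the mitosis axis at a given replication score.

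Across calves most of the 19 genes varied together. Over the 171 pairs of genes the mean Pearson r of log2(TMM CPM + 1) was 0.334 over 27 calves, 149 pairs being positive, whereas the mean over all pairs of genes tested was 0.001. Centring within lanes gave 0.264, centring within treatments 0.306 and leaving out TRT6 replicate 2 0.295. All values share the libraries and their scaling. The 10 genes of the Red module list had a mean r of 0.524 with each other, which is not independent of how their identifiers were found, since that module was built on the co-expression in these calves. Among the other 9, which are not in that list, the mean r was 0.156. Of these 9, 4 (CENPF, NUSAP1, ECT2 and PRC1) appear in the list of the study's Grey module, taken from the same network. The value of 0.156 and its distance from 0.524 depend on the same lookup.

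TOP2A followed the rest most closely, with r = 0.874 against the score of the other 18 genes, and was not in the Red list. SMC2 (0.858), KIF11 (0.832) and PCNA (0.815) came next, so that a replication clamp stood among mitosis genes. The closest pairs were TOP2A with NCAPG (r = 0.835), TOP2A with SMC2 (0.825) and BIRC5 with KIF11 (0.805). DNMT1 was closest to the helicase subunits MCM7 (0.627) and MCM5 (0.557), while PRC1 ran against it (r = -0.426).

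PLK1 stood apart. Its r with the score of the other genes was -0.301 over 27 calves, and it was negative with 15 of the other 18, most so with SMC4 (-0.574), SMC2 (-0.443) and NCAPG (-0.432). It was also the gene of the 19 with the highest r against the mean of 9 smooth muscle markers (0.352), where SMC4 had the lowest (-0.475). In TRT12 replicate 1, the calf with the highest SMC4 level (134 TMM CPM), PLK1 was at 59.5, the lowest of TRT12. Whether the smooth muscle share of a segment has a part in this was not tested. DNMT1 (0.266) and NUSAP1 (0.217), too, followed the other genes weakly. NUSAP1 was found through the list of the Grey module, which was built on these same calves.

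**Figure D5:**
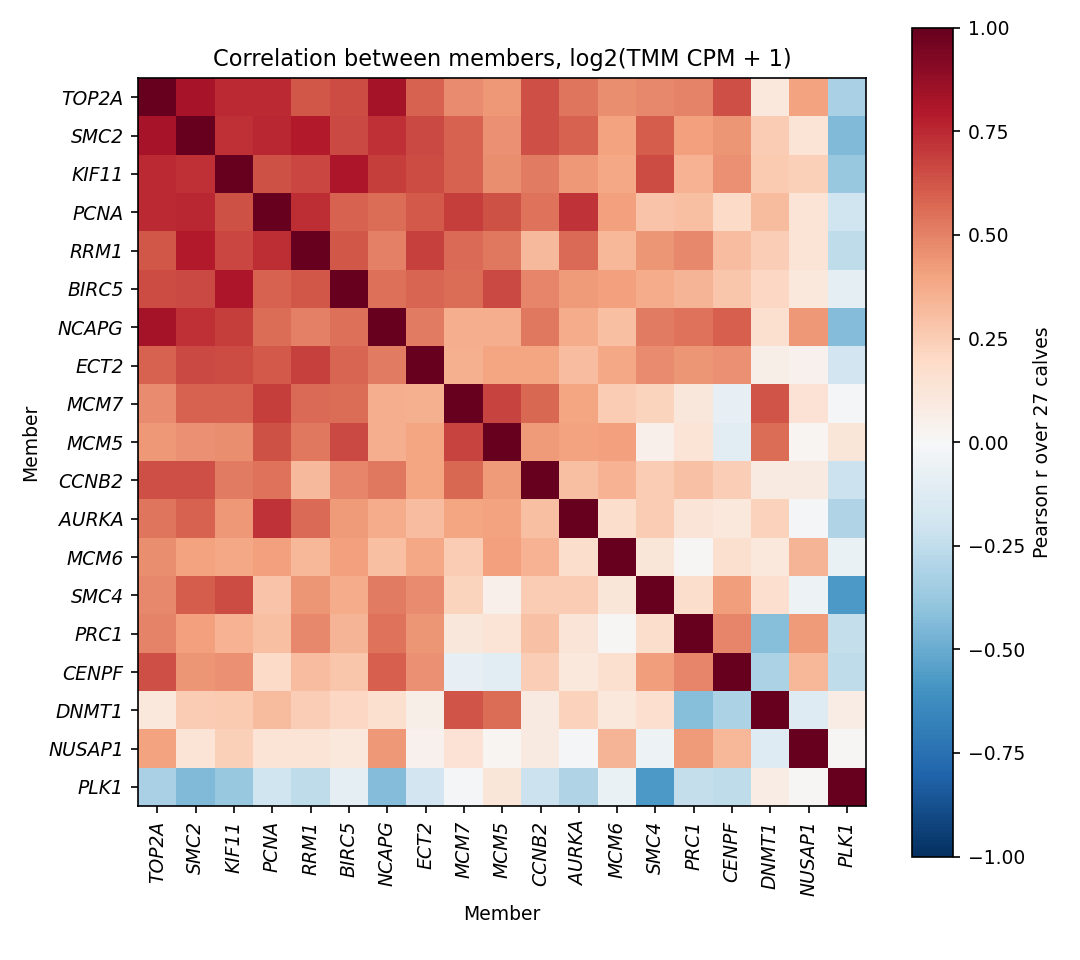
Pearson r of log2(TMM CPM + 1) over 27 calves for each pair of the 19 genes, with red for positive and blue for negative values. The genes are ordered by their r with the score of the other genes. The block from TOP2A to ECT2 is red throughout, and the PLK1 row is mostly blue, down to -0.574 with SMC4.

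The genes also differed in how much they varied over the calves. MCM5 had the highest coefficient of variation, 34.6%, where the reads alone would give 12.1%. In PRC1 it was lowest, 12.1% against 12.0% from the reads, and in CCNB2 it was 20.3% against 19.7%, so that little variation between calves beyond counting error was detectable in either at this depth. For TOP2A and CENPF, which had the most reads, the coefficients were 15.4% and 12.6% against 5.64% and 5.71%.

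Outside the list, the genes most like the score over the 27 calves were HMGN2, a nucleosome-binding protein (r = 0.89), CSE1L, a nuclear export factor for importin alpha (0.88), PSMD1, a proteasome subunit (0.874), HACD3 (0.867), CLTC, the clathrin heavy chain (0.856), PDIA3, a disulfide isomerase of the endoplasmic reticulum (0.854), and KPNA2, an importin alpha (0.853). These are the 7 with a symbol among the 10 highest of 13924 genes, over which the median r was -0.03. All 7 are in the list of the Red module as well, which was built on these calves. At the other end were ARHGEF16 (-0.823) and SIPA1L2 (-0.82).

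Other genes of the same pathway were looked up in the same way, which found fewer than 1 in 3 of them. Of 26 further replication genes 8 were tested. In TRT12 vs. TRT0 their median log2 fold change was 0.27, and 5 of 8 were above 0, beside 49.3% of all genes. TK1, the thymidine kinase of the DNA synthesis phase, had 0.59 ± 0.17 (edgeR, adjusted p = 0.41), FEN1, the flap endonuclease of lagging strand synthesis, 0.48 ± 0.19 (adjusted p = 0.457), and GINS4, a part of the active helicase, 0.60 ± 0.35 (adjusted p = 0.606). GINS4 was measured by only 1 to 18 reads per calf. Of 30 further mitosis genes 9 were tested and all 9 were above 0, with a median of 0.15. CDCA3 was at 0.53 ± 0.18 (adjusted p = 0.421), CENPA, the centromeric histone, at 0.30 ± 0.19 (adjusted p = 0.648) and KIF14 at 0.22 ± 0.17 (adjusted p = 0.73) in edgeR. None of these genes was called, as 0% of all genes were. At an unadjusted p under 0.05 were 2 of the 8 and 1 of the 9, beside 9.37% of all genes. Over the 27 calves the mean of the 8 replication genes had r = 0.748 with the score of the 19 genes. For the mean of the 9 mitosis genes r was 0.81. ORC1, GINS3, MCM10, FEN1, TK1, KIF2C, KIF14, NUF2, MAD2L1, HMMR and CENPA were found through the Red module list. That module was built on these calves, and its list also holds 10 of the 19 genes. These correlations and the shared direction are therefore not independent of the lookup.

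Of 33 regulators of the cycle (cyclins, kinase inhibitors and phosphatases) 5 were tested. In TRT12 vs. TRT0, 3 of these were above 0, beside 49.3% of all genes, with a median of 0.07. CDC25A and CDC25C, phosphatases that activate the cyclin-dependent kinases, had 0.24 ± 0.17 and 0.27 ± 0.22, and CCND2, a D-type cyclin, 0.07 ± 0.15. No regulator was at an unadjusted p under 0.05 in that comparison, beside 9.37% of all genes, and none was called.

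Genes of the crypt base had no common direction. Of 17 such genes 4 had an identifier, LGR5 not among them, and 3 passed the filter, MSI1 being at 0 counts in 7 of 27 calves. OLFM4, a secreted protein of crypt base cells, had a log2 fold change of 0.26 ± 0.18 in TRT12 vs. TRT0 (edgeR, adjusted p = 0.698). CD44, an adhesion receptor and Wnt target also found on leukocytes and stroma, had -0.24 ± 0.12 (adjusted p = 0.533), and LRIG1, a receptor inhibitor of stem cells, -0.23 ± 0.13 (adjusted p = 0.613). In TRT12 vs. TRT0 and in TRT6 vs. TRT0, 1 of the 3 genes tested was at an unadjusted p under 0.05. The shares of all genes were 9.37% and 3.13%. That gene was CD44 in both, with the lower value in the later fed calves. The mean of the 4 genes had r = 0.018 with the score over 27 calves and 0.413 after centring within lanes. This mean includes MSI1, which was measured by only 0 to 5 reads per calf.

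Epithelial markers, too, were above 0. In TRT12 vs. TRT0 all 9 markers tested, of 12, had a log2 fold change above 0, beside 49.3% of all genes, with a median of 0.23. VIL1 (0.34 ± 0.13), CLDN7 (0.31 ± 0.11) and CDH1 (0.23 ± 0.10) were at an unadjusted p under 0.05, beside 9.37% of all genes. Their adjusted p in edgeR were 0.434, 0.434 and 0.505. The mean log2 level of the 9 markers ran from 8.16 to 8.66 in TRT0, from 8.12 to 8.87 in TRT6 and from 8.20 to 9.05 in TRT12, which overlapped, and none of the 9 was at 0 counts in any calf. All 6 stromal markers had a log2 fold change below 0 (median -0.17), led by DCN at -0.23 ± 0.13, as did 8 of 9 smooth muscle markers (median -0.06), led by DES at -0.21 ± 0.17, all at an edgeR adjusted p of 0.613 or more. Of the other markers, PECAM1 of endothelium was at -0.18 ± 0.12, VWF at -0.07 ± 0.12 and KDR at 0.08 ± 0.10. CSF1R of leukocytes was at 0.03 ± 0.15 and PTPRC at -0.001 ± 0.27. All 3 markers of enteric neurons and glia were below 0, with a median of -0.25.

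With the mean of the epithelial markers as a covariate, 5 of the 19 genes were at an unadjusted p under 0.05 in TRT12 vs. TRT0, beside 5.53% of all genes, and the median log2 fold change was 0.17. Over all calves the score had r = 0.328 with the epithelial mean, but r = -0.322 within TRT0, 0.421 within TRT6 and 0.223 within TRT12. With the mean of the 9 smooth muscle markers it had r = -0.226 over all calves, -0.107 within TRT0, 0.038 within TRT6 and -0.763 within TRT12. With the mean of 2 leukocyte markers the score had r = 0.326 over all calves, 0.275 within TRT0, 0.319 within TRT6 and 0.516 within TRT12. Without the 2 calves whose leukocyte mean was farthest from its median, r was 0.123. For stromal, endothelial and enteric neuron and glia markers r was -0.146, -0.292 and -0.247 over all calves. The part of any of these tissues in the result was not tested. BIRC5 was the gene of the 19 with the highest r against the epithelial mean (0.514). Against the leukocyte mean it was DNMT1 (0.487), which had -0.206 against the epithelial mean. In a whole segment, a different number of dividing cells and a different amount of these transcripts in each of them cannot be told apart.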

How the data were processed

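Colon RNA of 27 calves was sequenced from TruSeq libraries. The authors aligned the reads to UMD 3.1 with TopHat2 2.1.1, sorted them with SAMtools 1.4 and deposited raw counts per Ensembl gene from HTSeq, without reads assigned to more than 1 gene. The strand setting is not given in the sources used here, so that reads of overlapping or antisense genes may be included. The totals are far below the number of reads sequenced, for a reason not given there either.

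Treatment was taken from the labels. Dam parity is not in them, so that it was used only as a covariate, with values from the study's sample sheet, and the comparisons by parity within the study's design were not made. The deposited counts were tested with edgeR 4.0.16 in R 4.3.3 (TMM factors 0.887 to 1.15, common biological coefficient of variation 0.222, quasi-likelihood test) in 1 fit of all 27 calves with treatment and parity as terms. A gene was kept if at least 5 of 9 calves of each treatment reached a CPM of 1, and p-values were adjusted (Benjamini-Hochberg) over all kept genes. Scores and correlations used log2(TMM CPM + 1) in Python 3.11.15 with NumPy 2.4.6. The scripts were tested on simulated data. None of the 351 pairs of libraries agreed within sampling noise (lowest chi-square per degree of freedom 2.99), so that each calf was 1 replicate.

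Symbols were paired with 4046 identifiers through the study's lists of core genes, held here in part, and of co-expression modules. The members and the other gene lists were chosen with earlier results of these data known. Named were up to 5 members with the lowest p in a comparison, those with the highest and lowest coefficient of variation, up to 3 genes of each other list and the genes most like the score. Alternatives were DESeq2 1.42.0, its size factors, library totals, no filter, edgeR's likelihood ratio test, an adjusted p of 0.05, lane as a covariate and leaving out each calf. A fit without parity, DESeq2 without independent filtering and a fit with the epithelial marker mean as a covariate were added after the data had been seen.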

Additional observations from a re-analysis of the deposited data

Results flagged for a closer look

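In 9 of the 66 sets of 9 calves examined (a gene or score in 1 treatment), the highest or lowest calf stood far from the next one relative to the whole range. By the criterion used, chance alone gives this in about 1 of 20 sets if these are independent and normally distributed. The sets here share their calves, and the scores are made of the same genes. The 9 of 66 can therefore not be read against that rate.

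TRT6 replicate 2 accounted for 5 of the 9, as the highest calf of its treatment. Its score was 5.98, the next being 5.69. Its MCM5 level was 63.3 TMM CPM (next 43.5), its PCNA level 85.8 (58), its ECT2 level 55.0 (37.9) and its NCAPG level 51.7 (39.0). This calf had 1264884 assigned reads and was sequenced in lane 1. TRT12 replicate 1 was the highest of its treatment in MCM7, at 110.0 TMM CPM (next 84.2), and in AURKA, at 21 (16.2), with 1314579 assigned reads.

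PRC1, the least variable of the 19 genes, had a low calf in each of the delayed treatments. TRT6 replicate 4 was at 29.2 TMM CPM (next 34.5) and TRT12 replicate 3 at 22.4 (32.7).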

How the results depend on the processing

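None of the 19 genes was called in any of the 3 comparisons under any alternative run. In TRT12 vs. TRT0 the number of them at an unadjusted p under 0.05 was 8, beside 9.37% of all genes. It moved to 5 with the sequencing lane as a covariate, beside 9.91% of all genes. With the epithelial marker mean as a covariate it moved to 5, beside 5.53%. When 1 calf was left out it was between 3 and 8, beside 6.89% to 12.7% of all genes. The other alternatives gave 6 to 8, and the cause was not tested. In that comparison DESeq2 called 51 genes of the whole table (0.366%) where edgeR called 0, but its independent filtering left 17 of the 19 without an adjusted p, and without that filtering it called 0 genes. The median log2 fold change of the 19 stayed between 0.13 and 0.23 over the 27 runs without 1 calf. No paired analysis was possible because the replicate numbers only name calves in accession order and pair no animals.

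Depth limits the genes with few reads: AURKA and CCNB2 have counting coefficients of variation of 20% and 19.7%. With 21 of 40 genes not analysed, the list stands for its 19 tested genes only. Lane, treatment and depth are not balanced.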
